A study of Mus musculus with 12 samples.

Results

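The genes of the MYC, MAX and MXD network were followed in cultured mouse hematopoietic stem cells (HSCs) with and without the leukemia fusion ETV6-RUNX1. The members were taken by gene name from the deposited expression table: Myc, Mycn, Mycl, Max, Mxd1, Mxd3, Mxd4, Mxi1, Mnt and Mlx. Each name matched a single gene, so the network held 10 of the 40481 genes listed, and 9 of the 10 were expressed strongly enough to be tested (a CPM, the count scaled to the library total, of 1 or more in 3 or more of the 12 libraries). Mycl did not pass.

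MYC, MYCN and MYCL are basic helix-loop-helix leucine zipper proteins that bind DNA only after pairing with MAX. The pair binds the E-box, a short palindrome in many promoters, and raises transcription of genes for ribosome production, nucleotide and polyamine synthesis and cell cycle entry. The MXD proteins (MXD1, MXD3, MXD4 and MXI1) and MNT compete for MAX and for the same E-boxes, and bring in the SIN3 corepressor, so that the same promoters are held down. MLX is a partner like MAX that pairs with MXD1, MXD4, MNT and the sugar-sensing factors MLXIP (MondoA) and MLXIPL. In blood formation MYC is known for the balance between self-renewal and differentiation of stem cells, and MXD1 for its rise as cells leave the cycle and mature.

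The 12 libraries formed 4 groups of 3: wild-type (WT) bone marrow, ETV6-RUNX1 bone marrow, WT fetal liver and ETV6-RUNX1 fetal liver. Fetal liver HSCs were sorted at E14.5 (days of embryonic life) and bone marrow HSCs at 8 weeks of age. The ETV6-RUNX1 cells carried an inducible fusion allele (iE/R in the labels). All cells, the WT controls included, were grown for 3 days in medium that expands HSCs, with doxycycline at 1 µg/mL. The promoter of the inducible allele, the number of animals behind a library and their sex are not given in the sources used here, and the labels do not say that replicates came from separate animals or cultures, so p-values measure the spread between these libraries, which may be technical.

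Library totals were 32.3 to 64.5 M reads, and 13012 to 13750 genes reached 1 CPM in a library. Runx1, a partner of the fusion, was at 218 to 244 CPM with the fusion against 110.4 to 136 CPM without it in fetal liver, and at 143 to 194 against 86.7 to 105 CPM in bone marrow, in the direction of the labels. The 10 HSC markers checked were present in every group, with none under 1 CPM throughout a group, and the 10 lymphoid markers summed to at most 4.29 CPM in any library, with Cd3e at 0. Replicate 1 of WT bone marrow stood apart from the others of its group, with Elane at 17.3 CPM against 0.04 and 0.22 CPM and Kit at 129 CPM against 552 and 403 CPM. Replicate 2 of ETV6-RUNX1 bone marrow was high in the megakaryocyte gene Pf4 (1217 CPM against 224 and 149 CPM). Xist was at 0.175 to 1.27 CPM in bone marrow and 51.7 to 89.3 CPM in fetal liver, and since Xist marks female cells, differences between sources and differences of sex cannot be told apart.

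The network's own promoters were read for the letters that its proteins bind. RefSeq promoter windows of the GRCm38.p6 build (250 bases before to 50 after the start) were at hand for 9 of the 10 members, in 11 windows; Myc had no entry. The E-box CACGTG, which reads the same on both strands, was found in the promoters of 4 members (Mxd4, Mnt, Mlx and Max), while 7.15% of all 32851 promoter windows held it. These are shown because the members bind this motif themselves. The 30 bases around each are given 5′ to 3′ on the strand of the gene, with the E-box in capitals. The Mxd4 site lies at chr5:34187912-34187941 (minus strand), the Mnt site at chr11:74830789-74830818 (plus), the Mlx site at chr11:101087238-101087267 (plus) and the Max site at chr12:76962234-76962263 (minus). The E-box begins 219 bases before the RefSeq start in Mxd4, 123 in Mnt, 40 in Mlx and 3 in Max, where it crosses the start.
Mxd4: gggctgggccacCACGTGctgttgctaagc
Mnt: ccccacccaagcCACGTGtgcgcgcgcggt
Mlx: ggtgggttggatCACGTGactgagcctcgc
Max: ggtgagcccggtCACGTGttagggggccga

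Below are the bases just upstream of the 2 tested members with a matched window that changed most in fetal liver, Mxd1 (chr6:86669162-86669409, minus strand, 248 bases, ending at the base before the gene) and Mycn (chr12:12941915-12942086, minus strand, 172 bases). Their 300-base windows held no CACGTG, neither RUNX motif searched (TGTGGT and TGCGGT, both strands) and no interferon-response element (ISRE, both strands), and so neither stretch has capitals. Of all promoter windows, 16.8% held TGTGGT, 6.45% TGCGGT and 3.44% the ISRE. Among the members, TGCGGT was found in Max and Mxi1, and the other 2 motifs in no member. A match or its absence describes these letters in these windows and nothing about binding.
Mxd1: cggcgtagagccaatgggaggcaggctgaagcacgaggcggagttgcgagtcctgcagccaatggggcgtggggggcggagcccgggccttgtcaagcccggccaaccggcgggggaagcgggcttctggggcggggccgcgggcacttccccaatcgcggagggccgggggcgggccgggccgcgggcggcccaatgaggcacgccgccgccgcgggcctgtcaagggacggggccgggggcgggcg
Mycn: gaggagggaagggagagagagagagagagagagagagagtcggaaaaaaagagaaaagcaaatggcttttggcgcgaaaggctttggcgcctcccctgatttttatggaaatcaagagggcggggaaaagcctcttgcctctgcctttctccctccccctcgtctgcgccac

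In fetal liver HSCs, Myc and Mycn fell and Mxd1 rose in ETV6-RUNX1 cells, while the other tested members did not pass the test. In bone marrow HSCs, Myc was level between genotypes, Mycn was lower without passing the test, and Mxd1 rose by less than in fetal liver. Changes are log2 fold changes ± SE on the scale log2(CPM + 1), which understates changes of low genes. A gene is called when its limma p, adjusted by the Benjamini-Hochberg method over all 14271 genes tested, is under 0.05. Of the 9 members tested in fetal liver, 1 was called higher and 2 lower, where the shares of all genes tested were 24.8% higher and 18.3% lower. For bone marrow 1 of 9 was called higher and 0 lower, beside 14.4% and 4.93% of all genes. The bone marrow split depends on scaling, since median-of-ratios scaling moved the shares of all genes to 10.03% higher and 9.79% lower and the median of all genes from 0.13 to 0.00. The difference between the genotype effects (fetal liver minus bone marrow) was called higher in 1 and lower in 2 of 9 members, beside 5.56% and 3.62% of all genes. The median change over the 9 members was -0.06 in fetal liver and 0.05 in bone marrow, against 0.08 and 0.13 over all genes tested.

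**Figure D1:**
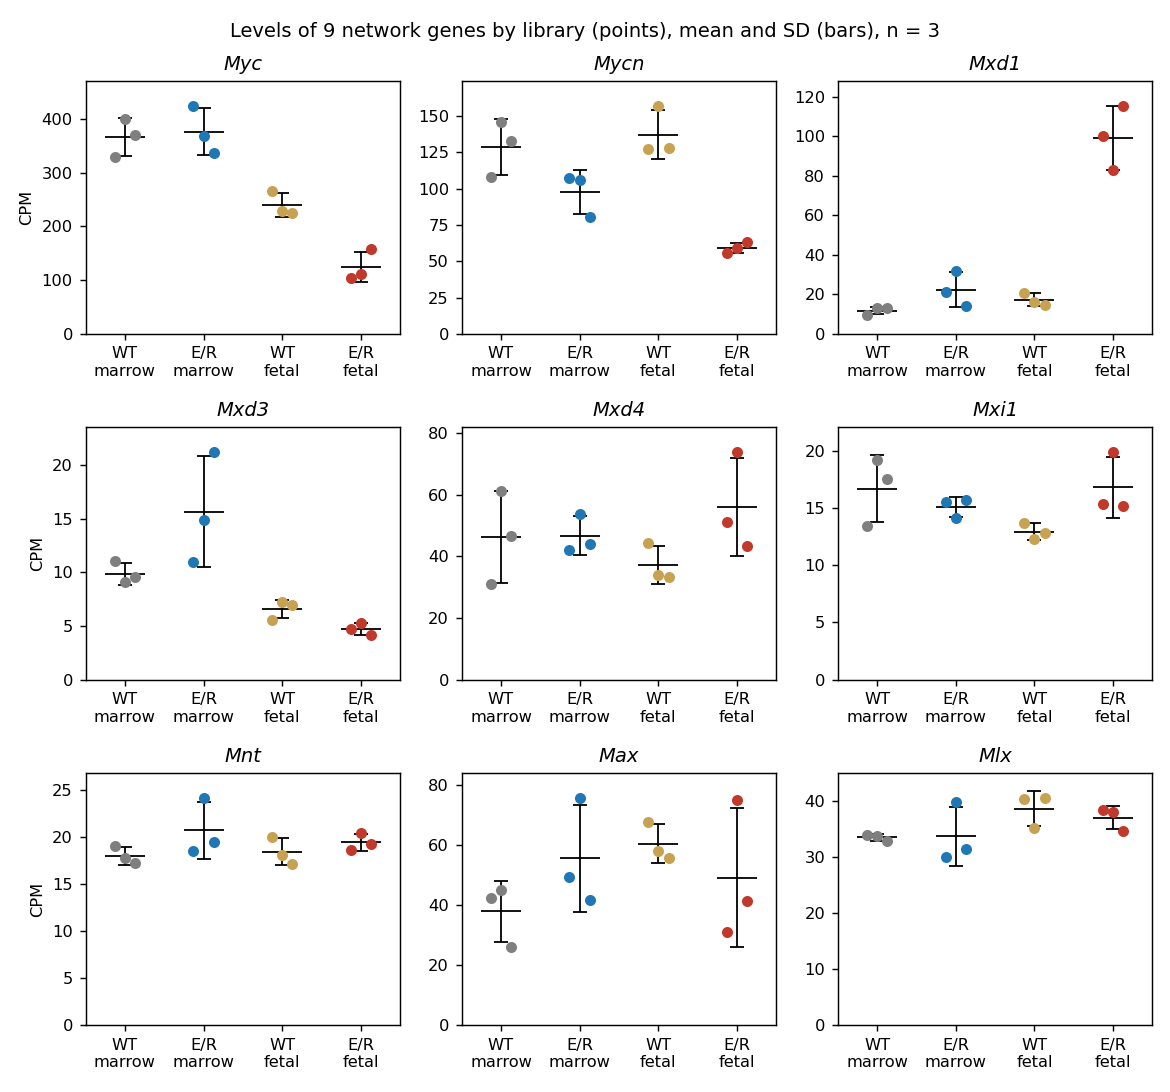
Levels in CPM (linear axes from 0) of the 9 tested network genes in each of 12 libraries (points), with group mean and SD (bars, n = 3). In Myc, Mycn and Mxd1 the 3 ETV6-RUNX1 fetal liver libraries (red) lie clear of the 3 WT fetal liver libraries; in Max they span nearly the range of the others.

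Myc (ENSMUSG00000022346, GRCm38 chromosome 15, 61985391 to 61990374, plus strand) was the most abundant member. WT bone marrow libraries held 329, 399.9 and 371 CPM, and ETV6-RUNX1 bone marrow libraries 424, 369 and 337 CPM. WT fetal liver libraries held 266, 229 and 226 CPM, and ETV6-RUNX1 fetal liver libraries 104, 112 and 157 CPM. Every ETV6-RUNX1 fetal liver library was therefore below every WT one, while the bone marrow groups overlapped. Group means ± SD (n = 3) were 377 ± 43.8 (ETV6-RUNX1) and 367 ± 35.5 CPM (WT) for bone marrow, and 125 ± 28.6 (ETV6-RUNX1) and 240.5 ± 22.3 CPM (WT) for fetal liver. In fetal liver Myc fell by 0.96 ± 0.16 on the log2 scale (limma adjusted p 0.000253), and the call held under all 21 alternative settings.

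In bone marrow the change of Myc was 0.04 ± 0.16 (95% interval -0.30 to 0.37, limma adjusted p 0.892), with its sign turned under 5 of 21 alternatives, so no direction is given. The difference between the fetal liver and bone marrow effects was itself called (-0.999 ± 0.22, limma adjusted p 0.0131, called under 20 of 20 alternatives). Fetal liver was below bone marrow in both genotypes. Within WT the fall was 0.61 ± 0.16 (limma adjusted p 0.0216, called under 15 of 21 alternatives), with no overlap of libraries. It was not called without WT bone marrow replicate 2 (-0.54, limma adjusted p 0.105) or 3 (-0.60, 0.0629), nor without WT fetal liver replicate 2 (-0.57, 0.0748) or 3 (-0.56, 0.0933). Within ETV6-RUNX1 cells the fall was 1.61 ± 0.16 (limma adjusted p 4.87e-06). In order, the 2 bone marrow groups came first and were not told apart, then WT fetal liver, then ETV6-RUNX1 fetal liver.

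Beside these values, markers of other states moved between the same groups. The summed level of the 14 cycling-cell markers in fetal liver was 1499 to 1902 CPM with the fusion against 2756 to 3180.5 CPM in WT, and 2042 to 2714 against 3096 to 3835 CPM in bone marrow. Of these markers 11 of 14 fell in fetal liver and 6 of 14 in bone marrow, and none was at 0. Beside this and the marker counts that follow, 24.8% of all genes were called higher and 18.3% lower in fetal liver. In bone marrow these shares were 14.4% and 4.93%. The summed 7 megakaryocyte markers were at 7296 to 8401 CPM in ETV6-RUNX1 fetal liver against 3116 to 4476 CPM in WT, with 5 of 7 higher and 1 lower. The summed 10 erythroid markers were at 1451 to 2226 against 731 to 1013 CPM, of which Hbb-bt alone made 1238 to 1961 against 648 to 908 CPM. Of the 8 erythroid markers tested, 7 were higher and 0 lower. Klf1 went the other way without a call, at 0.03 to 0.32 against 0.50 to 0.95 CPM. Alas2 and Car1 were too low to test. The summed 10 granulocyte and monocyte markers were at 715 to 904 CPM in ETV6-RUNX1 fetal liver against 459 to 588 CPM in WT. In bone marrow these were at 450 to 644 CPM with the fusion against 430 to 641 CPM in WT. Of the 6 tested, 3 were higher and 2 lower in fetal liver, and 2 and 1 in bone marrow. Lyz2 alone made 609 to 795 CPM of the fetal liver sums with the fusion, against 200 to 265 CPM in WT. Prtn3 went the other way there, at 24.8 to 34.7 against 174 to 199 CPM. The mitochondrial share of reads was 0.92% to 1.10% in ETV6-RUNX1 fetal liver and 1.34% to 1.84% in the other groups. The summed 10 HSC markers were at 3610 to 3683 CPM with the fusion against 1499 to 1841 CPM in WT fetal liver, with 7 of 10 higher. In bone marrow they were at 2595 to 2875 against 1590 to 2333 CPM, with 5 of 10 higher. Of these sums Ly6a alone made 629 to 1107 against 14.53 to 21.4 CPM in fetal liver. In bone marrow Ly6a made 282 to 629 against 38.4 to 179 CPM, and without it the bone marrow sums overlapped. Gata2 went the other way in fetal liver without a call, at 70.8 to 102 against 89.0 to 127 CPM. The part of these differences in the results on the network was not tested, and in bulk RNA fewer cells of a type and less RNA per cell cannot be told apart.

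Mycn (ENSMUSG00000037169, chromosome 12, 12936093 to 12941914, minus strand) encodes the MYC protein best known from embryonic and neural tissue, which fetal and adult HSCs also express. WT fetal liver libraries held 127, 157 and 128 CPM and ETV6-RUNX1 fetal liver libraries 55.5, 58.8 and 62.9 CPM. WT bone marrow libraries held 108, 146 and 133 CPM and ETV6-RUNX1 bone marrow libraries 107, 106 and 80.5 CPM. The ETV6-RUNX1 fetal liver libraries were the lowest 3 of the 12, and in bone marrow the highest ETV6-RUNX1 library (107.3 CPM) lay just under the lowest WT one (107.9 CPM). Means were 137 ± 17.0 CPM in WT and 59.1 ± 3.70 CPM in ETV6-RUNX1 fetal liver (SD, n = 3), and 129 ± 19.2 and 97.9 ± 15.1 CPM in bone marrow.

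In fetal liver Mycn fell by 1.20 ± 0.15 (limma adjusted p 3.34e-05, called under 21 of 21 alternatives). Its bone marrow change was -0.39 ± 0.15 (limma adjusted p 0.0859). That change is sensitive to scaling: it was called at -0.55 with median-of-ratios scaling (limma adjusted p 0.0132), at -0.45 with quantile normalization (0.0418), by edgeR at -0.55 (adjusted p 0.0173) and by DESeq2 at -0.54 (adjusted p 0.00414), as well as at -0.52 without WT bone marrow replicate 1 (limma adjusted p 0.0387). The difference between the 2 effects was -0.80 ± 0.22 (limma adjusted p 0.0342, 0.00821 to 0.0945 over 20 alternatives, 12 of them calls). It lost the call without WT bone marrow replicate 3, WT fetal liver replicate 2 or 3, ETV6-RUNX1 bone marrow replicate 1 or 2, or ETV6-RUNX1 fetal liver replicate 1 or 2 (differences from -0.70 to -0.85, limma adjusted p 0.0556 to 0.0945), and also when all genes with reads were tested (limma adjusted p 0.0756). Between WT sources Mycn differed by 0.09 (95% interval -0.24 to 0.42), and within ETV6-RUNX1 cells it was lower in fetal liver than in bone marrow by a log2 change of -0.71 ± 0.15 (limma adjusted p 0.00354).

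The third MYC gene, Mycl (ENSMUSG00000028654, chromosome 4, 122995652 to 123002485), had 0 to 5 reads per library. It was at or under 3 reads, the count taken as not told from 0, in 11 of 12 libraries and at 0 in 2 of them. Levels of different genes were compared per kb of exon, where Myc stood at 135 ± 13.1 CPM per kb in WT bone marrow and 45.9 ± 10.5 CPM per kb in ETV6-RUNX1 fetal liver (SD, n = 3). Mycn stood at 39.1 ± 5.82 and 17.9 ± 1.12 CPM per kb in these groups. Of the summed Myc and Mycn level per kb, Mycn made 21.3% to 23.1% in WT bone marrow, 16.4% to 19.1% in ETV6-RUNX1 bone marrow, 28.2% to 36.0% in WT fetal liver and 24.8% to 30.5% in ETV6-RUNX1 fetal liver. Myc was the larger component in all 12 libraries.

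Max (ENSMUSG00000059436, chromosome 12, 76937269 to 76962201, minus strand), whose product pairs with the MYC and MXD proteins, was called in none of the 5 comparisons. WT bone marrow libraries held 42.5, 45.1 and 26.3 CPM, and ETV6-RUNX1 ones 49.5, 75.8 and 41.9 CPM. WT fetal liver libraries held 67.8, 58.2 and 55.6 CPM, and ETV6-RUNX1 ones 31.0, 75.2 and 41.3 CPM. The groups overlapped within each source, and the ETV6-RUNX1 fetal liver group was wide, from the second lowest to the second highest library of all. The fetal liver change was -0.39 ± 0.29 (95% interval -1.02 to 0.24, limma adjusted p 0.310), and it was called only without ETV6-RUNX1 fetal liver replicate 2 (-0.74, limma adjusted p 0.0453), the high library. In bone marrow it was 0.53 ± 0.29 (95% interval -0.10 to 1.17, limma adjusted p 0.216), and the difference between the effects was -0.92 ± 0.42 (limma adjusted p 0.175). These intervals allow changes as large as those of Myc.

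Mlx (ENSMUSG00000017801, chromosome 11, 101087277 to 101092207, plus strand) was steadier. Its libraries spanned 29.96 to 40.6 CPM, with group means from 33.5 to 38.7 CPM. The genotype change was -0.06 ± 0.14 in fetal liver (95% interval -0.36 to 0.24) and 0.00 ± 0.14 in bone marrow (-0.30 to 0.30), with limma adjusted p 0.762 and 0.993. Mlx shares 385 bases with Psmc3ip on the opposite strand, a gene at 20.5 to 40.2 CPM, and whether counting used strand is not given in the sources used here, so reads of the pair cannot be told apart.

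**Figure D2:**
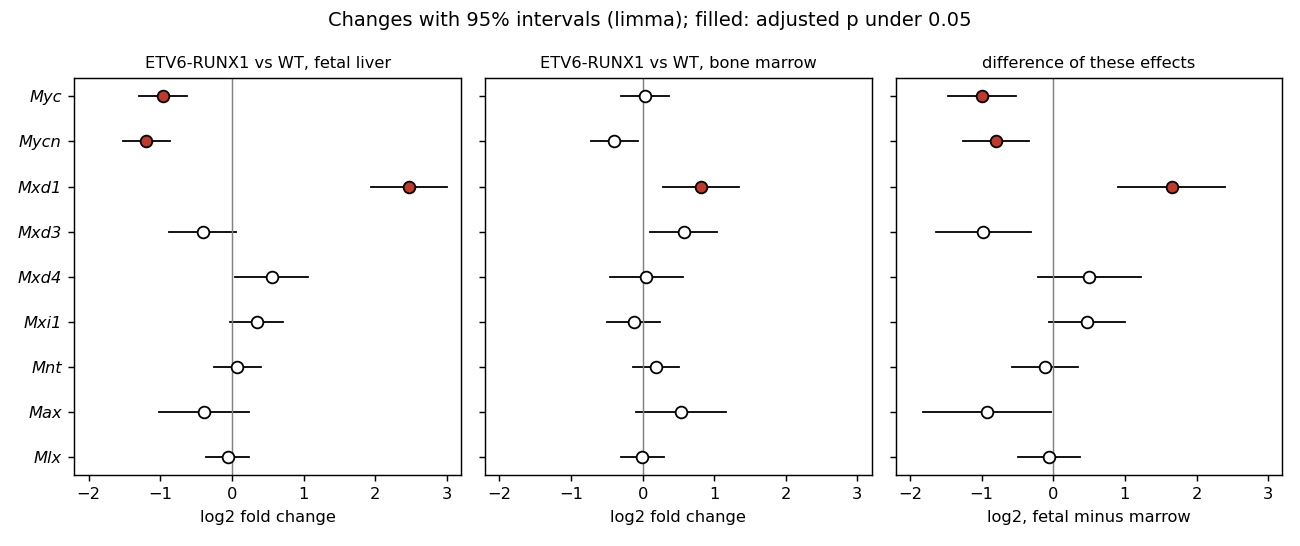
Log2 fold changes of ETV6-RUNX1 against WT in fetal liver and in bone marrow, and the difference between them, for the 9 tested members (points) with 95% intervals (lines) from limma; filled points have an adjusted p under 0.05. Filled are Myc (-0.96), Mycn (-1.20) and Mxd1 (2.47) in fetal liver, Mxd1 (0.82) in bone marrow, and Myc, Mycn and Mxd1 in the difference.

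Among the antagonists, Mxd1 (ENSMUSG00000001156, chromosome 6, 86647042 to 86669161, minus strand), whose protein pairs with MAX and carries SIN3 to E-boxes, changed most. ETV6-RUNX1 fetal liver libraries held 100.1, 82.8 and 115 CPM, and WT fetal liver libraries 20.9, 16.0 and 14.6 CPM. In bone marrow ETV6-RUNX1 libraries held 21.4, 31.7 and 14.1 CPM and WT libraries 9.56, 12.9 and 12.9 CPM. The 3 ETV6-RUNX1 fetal liver libraries were the highest of the 12, and the groups did not overlap in either source, narrowly so in bone marrow. Means were 99.4 ± 16.3 against 17.2 ± 3.32 CPM in fetal liver (SD, n = 3, a ratio of 5.79) and 22.4 ± 8.85 against 11.8 ± 1.91 CPM in bone marrow (a ratio of 1.90).

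The rise of Mxd1 was 2.47 ± 0.25 in fetal liver (limma adjusted p 3.4e-06, called under 21 of 21 alternatives). In bone marrow it was 0.82 ± 0.25 (limma adjusted p 0.0333), called under 11 of 21 alternatives. The call was lost at 0.67 with median-of-ratios scaling (limma adjusted p 0.0527), at 0.55 with quantile normalization (0.0994), and at 0.54 without ETV6-RUNX1 bone marrow replicate 2 (0.148), the library high in Pf4. Leaving out WT bone marrow replicate 1, 2 or 3, or ETV6-RUNX1 bone marrow replicate 1, gave 0.68 to 0.88 with limma adjusted p from 0.0529 to 0.0956. The difference between the effects was 1.65 ± 0.35 (limma adjusted p 0.00974, called under 20 of 20 alternatives). Between sources Mxd1 was higher in fetal liver by 2.16 ± 0.25 within ETV6-RUNX1 cells (limma adjusted p 2.03e-05), and by 0.51 ± 0.25 without a call within WT (limma adjusted p 0.219). In order, ETV6-RUNX1 fetal liver stood above the other 3 groups, among which ETV6-RUNX1 bone marrow and WT fetal liver overlapped.

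Mxd3 (ENSMUSG00000021485, chromosome 13, 55325168 to 55329823, minus strand), the MXD gene known to be expressed in S phase cells, had a different pattern. WT bone marrow libraries held 11.03, 9.06 and 9.57 CPM and ETV6-RUNX1 ones 10.9, 14.9 and 21.2 CPM. WT fetal liver libraries held 5.60, 7.19 and 6.98 CPM and ETV6-RUNX1 ones 4.685, 5.28 and 4.17 CPM. All 6 fetal liver libraries were below all 6 bone marrow libraries. The genotype change was -0.41 ± 0.22 in fetal liver (limma adjusted p 0.147) and 0.57 ± 0.22 in bone marrow (limma adjusted p 0.0813), neither a call, and their difference was -0.98 ± 0.31 (limma adjusted p 0.0617, called under 3 of 20 alternatives). The test was passed only between sources within ETV6-RUNX1 cells, where Mxd3 was lower in fetal liver by a log2 change of -1.50 ± 0.22 (limma adjusted p 0.000167, 21 of 21 alternatives). Mxd3 shares 105 bases with Prelid1 on the opposite strand, a gene at 139 to 241 CPM, so its level is uncertain.

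The other 3 antagonists passed the test in none of the 5 comparisons. Mxd4 (ENSMUSG00000037235, chromosome 5, 34173883 to 34187720, minus strand), linked to maturing cells, was at 51.1, 73.8 and 43.3 CPM in fetal liver with the fusion and 44.4, 34.1 and 33.2 CPM without it, groups that overlapped at 1 library each. Its fetal liver change was 0.55 ± 0.24 (limma adjusted p 0.0735, 0.031 to 0.295 over 21 alternatives, 3 of them calls), and its bone marrow change 0.05 ± 0.24. Mxi1 (ENSMUSG00000025025, chromosome 19, 53310518 to 53375810, plus strand), also named MXD2, spanned 12.3 to 19.9 CPM over all libraries, with a fetal liver change of 0.35 ± 0.17 (limma adjusted p 0.123) and a bone marrow change of -0.12 ± 0.17. Mnt (ENSMUSG00000000282, chromosome 11, 74830920 to 74845725, plus strand), the antagonist present in both resting and dividing cells, spanned 17.2 to 24.2 CPM, with a fetal liver change of 0.07 (95% interval -0.25 to 0.40) and a bone marrow change of 0.19 (-0.14 to 0.51). Mxd4 and Mxi1 overlap antisense genes, and Max and Mxd1 overlap unverified gene models on their own strand, so a share of their reads could belong to those.

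Between sources, 0 members were called higher and 1 lower in fetal liver against bone marrow within WT, where 3.38% and 7.77% of all genes were called. Within ETV6-RUNX1 cells 1 was called higher (Mxd1) and 3 lower (Myc, Mycn and Mxd3), beside 10.4% and 18.2% of all genes. Median-of-ratios scaling moved the latter shares to 14.46% and 10.2% and kept the same 4 members called. The median change of the members was 0.03 within WT and -0.08 within ETV6-RUNX1 cells, against -0.07 and -0.16 over all genes tested. These comparisons share their libraries with the genotype comparisons, and only the separate values are given.

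Set side by side per kb of exon, the MYC-type transcripts (Myc, Mycn and Mycl) and the antagonists (Mxd1, Mxd3, Mxd4, Mxi1 and Mnt) were closer in ETV6-RUNX1 fetal liver than in any other group. The ratio of the 2 sums was 9.77, 9.81 and 10.02 in WT bone marrow and 9.99, 6.89 and 6.56 in ETV6-RUNX1 bone marrow. It was 8.08, 8.78 and 8.39 in WT fetal liver and 1.94, 1.97 and 2.60 in ETV6-RUNX1 fetal liver. Both terms moved there: the MYC-type sum was 63.8 ± 11.6 CPM per kb against 130.1 ± 7.52 CPM per kb in WT fetal liver, and the antagonist sum 29.3 ± 0.795 against 15.5 ± 1.25 CPM per kb (SD, n = 3). No test was made on these sums, since they follow from the members above.

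**Figure D3:**
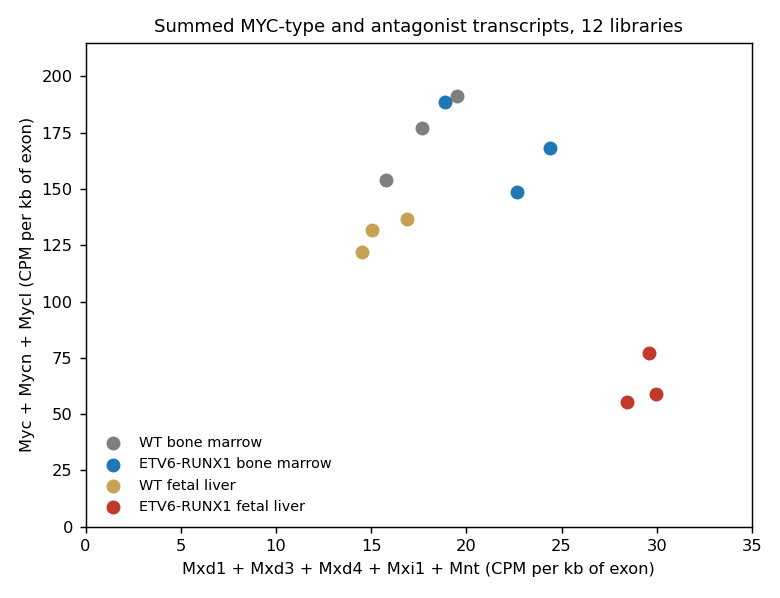
Summed level per kb of exon of the MYC-type genes (vertical axis) against that of the 5 antagonists (horizontal axis), 1 point per library, both axes linear from 0. The ETV6-RUNX1 fetal liver libraries lie apart at the lower right (55.3 to 77.01 against 28.4 to 29.98 CPM per kb), below all other libraries on the vertical axis and beyond them on the horizontal one.

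Most of the higher antagonist level in ETV6-RUNX1 fetal liver was Mxd1, at 14.1 ± 2.30 against 2.43 ± 0.470 CPM per kb in WT (SD, n = 3). Its share of the antagonist sum per kb was 8.6% to 10.3% in WT bone marrow, 8.8% to 18.4% in ETV6-RUNX1 bone marrow, 14.2% to 17.5% in WT fetal liver and 39.1% to 55.1% in ETV6-RUNX1 fetal liver. Myc exceeded Mxd1 in CPM by 28.9 to 34.4 times in WT bone marrow, 11.6 to 23.9 times in ETV6-RUNX1 bone marrow and 12.7 to 15.5 times in WT fetal liver. In ETV6-RUNX1 fetal liver that ratio was 1.04 to 1.36. The merged annotated exons of Mxd1 are longer than those of Myc (7072 against 2717 bases). Per kb, Myc therefore stayed above Mxd1 there, with means of 45.9 and 14.1 CPM per kb. RNA levels do not give the amounts of these short-lived proteins.

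Of 5 further genes of the family, 3 were tested. Mlxip, the MondoA partner of MLX, rose in fetal liver from 18.6 ± 2.83 to 33.8 ± 0.832 CPM (0.84 ± 0.16, limma adjusted p 0.000956) and was at 0.43 ± 0.16 in bone marrow (limma adjusted p 0.0750). Mga, the large MAX partner of a Polycomb complex, changed by 0.40 ± 0.17 in fetal liver, where its groups did not overlap, without passing the test (limma adjusted p 0.0764). Bmyc, a shorter MYC relative, rose in bone marrow from 8.37 ± 0.698 to 16.7 ± 1.28 CPM (0.92 ± 0.24, limma adjusted p 0.0170) and not in fetal liver (-0.38 ± 0.24, limma adjusted p 0.212), and the difference was called (-1.30 ± 0.34, limma adjusted p 0.0282). Its bone marrow call was lost with quantile normalization. The difference lost its call when all genes with reads were tested, and without WT bone marrow replicate 2. Nor was the difference called without WT fetal liver replicate 2 or 3, or ETV6-RUNX1 bone marrow replicate 1 or 3. Leaving out ETV6-RUNX1 fetal liver replicate 1 or 2 also lost that call. Mlxipl and Mycs were too low to test.

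Of 21 cofactors of MYC and MAX and parts of the SIN3 corepressor, 1 rose and 8 fell in fetal liver (median -0.18, against 0.08 over all genes tested), where 24.8% of all genes were called higher and 18.3% lower. In bone marrow 2 rose and 2 fell (median 0.09, against 0.13), beside 14.4% and 4.93% of all genes. Ruvbl1 and Ruvbl2, helicases of the TIP60 and INO80 complexes, fell by 1.23 ± 0.11 and 1.29 ± 0.12 in fetal liver (limma adjusted p 7.56e-07 and 2.11e-06). In bone marrow they were at -0.32 and -0.30 without a call, and the differences were called (-0.91 and -0.98, limma adjusted p 0.00207 and 0.00316). Actl6a, an actin-related subunit of the same complexes, fell in both sources (-0.85 and -0.69), as did the histone deacetylase Hdac1 (-0.42 and -0.58). Wdr5, which anchors MYC to chromatin, fell in fetal liver by 0.58 ± 0.23 at the edge of the threshold (limma adjusted p 0.0498). Sin3a, the SIN3 scaffold that MXD proteins bind, was at 0.13 ± 0.25 in fetal liver and 0.00 ± 0.25 in bone marrow, and Sin3b was at 0.29 ± 0.13 without a call in fetal liver and rose by 0.53 ± 0.13 in bone marrow (limma adjusted p 0.0134). Zbtb17 (MIZ1), through which MYC represses genes, was at 0.07 in fetal liver and rose by 0.51 ± 0.15 in bone marrow (limma adjusted p 0.0311). The only rise in fetal liver was Trrap (0.97 ± 0.21, limma adjusted p 0.0025), a scaffold for acetyltransferases named after its value was seen.

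The count of cofactors is not firm. Over the alternatives 4 to 9 fell in fetal liver, with 4 without WT fetal liver replicate 2 and 5 without WT fetal liver replicate 1 or any single ETV6-RUNX1 fetal liver library. The 2 bone marrow rises, Sin3b and Zbtb17, were not called with median-of-ratios scaling, edgeR or DESeq2, where 5 cofactors fell and the median was -0.07 to -0.05, nor without ETV6-RUNX1 bone marrow replicate 2.

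Of 18 genes that act on the stability of the MYC protein, 0 rose and 4 fell in fetal liver, beside 24.8% of all genes called higher and 18.3% lower. In bone marrow 2 rose and 2 fell, beside 14.4% and 4.93% of all genes. The fall in fetal liver and the rise in bone marrow are thus near the shares of all genes. The median changes were -0.01 in both sources, against 0.08 and 0.13 over all genes tested. Fbxw7, the ubiquitin ligase subunit that marks MYC for degradation, was at 0.07 ± 0.14 in fetal liver and 0.04 ± 0.14 in bone marrow, and the ligase Huwe1 at 0.19 and 0.01, none a call. Gsk3b, the kinase that primes MYC for Fbxw7, was at 0.72 ± 0.30 in fetal liver (limma adjusted p 0.0634). Skp2, another ligase subunit that targets MYC, fell in both sources (-0.60 and -0.65, limma adjusted p 0.0165 and 0.0248). Aurka, a mitotic kinase that shields MYCN from degradation, also fell in both (-0.95 and -0.69), and so did Set, an inhibitor of the phosphatase PP2A, in fetal liver (-0.93 ± 0.16, limma adjusted p 0.000323). Skp2 and Aurka are themselves cell cycle genes and moved beside the cycling markers given above. Usp22, a deubiquitinase, rose in bone marrow (0.51 ± 0.15, limma adjusted p 0.0248), as did Stub1 (1.14 ± 0.36, limma adjusted p 0.0370), named after its value was seen. Without WT fetal liver replicate 2 or ETV6-RUNX1 fetal liver replicate 3 the fetal liver count was 2, and without replicate 1 of either bone marrow group the bone marrow rises were 0. The bone marrow split also depends on scaling and test, with 1 rise and 4 falls under median-of-ratios scaling (median -0.15), 0 and 4 by edgeR (median -0.16), 2 and 4 by DESeq2 (median -0.15), and 0 and 1 with only the 6 libraries compared.

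Of 39 genes that MYC is known to induce, 31 fell and 0 rose in fetal liver, with a median change of -0.94 against 0.08 over all genes tested and 18.3% of all genes called lower. In bone marrow 16 fell and 1 rose, with a median of -0.42 against 0.13 and 4.93% called lower. The list was written with earlier results of these data in view and is no independent evidence of its direction. Npm1, a nucleolar chaperone of ribosome assembly, went from 3497 ± 360 to 1201 ± 27.7 CPM in fetal liver (SD, n = 3, -1.54 ± 0.15, limma adjusted p 2.15e-06), and fell by 0.78 ± 0.15 in bone marrow. Ncl, the other large nucleolar protein gene, fell in fetal liver (-0.66 ± 0.17, limma adjusted p 0.00556, against -0.06 without a call in bone marrow), and the difference was not called (limma adjusted p 0.125). Srm, the spermidine synthase gene, fell most of the list in fetal liver, from 55.2 ± 2.81 to 14.2 ± 2.93 CPM (-1.90 ± 0.18, limma adjusted p 2.34e-06), and was at -0.49 ± 0.18 in bone marrow without a call (the difference was -1.40, limma adjusted p 0.00399). Odc1, the enzyme a step earlier in polyamine synthesis, was at -0.51 ± 0.21 (limma adjusted p 0.0606).

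Of the list's genes of nucleotide and one-carbon metabolism, those named here fell in both sources. They were Cad (-1.10 in fetal liver and -0.75 in bone marrow), which starts pyrimidine synthesis, Impdh2 (-1.14 and -0.81), which starts guanine nucleotide synthesis, and the mitochondrial serine enzyme Shmt2 (-1.42 and -0.44). Cdk4, the cyclin D kinase, fell from 877 ± 65.9 to 369 ± 12.96 CPM in fetal liver (-1.24 ± 0.13) and by 0.44 ± 0.13 in bone marrow, with a called difference (-0.80, limma adjusted p 0.0142). Hspd1, a mitochondrial chaperonin, fell by 1.52 ± 0.16 and 0.90 ± 0.16, and Ldha, the lactate dehydrogenase of glycolysis, by 0.69 ± 0.13 and 0.65 ± 0.13. Among those without a call was Ccnd2, the partner of CDK4, at 0.08 ± 0.13 in fetal liver and -0.09 ± 0.13 in bone marrow. Tfrc, the transferrin receptor, was at -0.93 ± 0.40 and -1.10 ± 0.40 without a call (limma adjusted p 0.0751 and 0.0690). The only rise was Tfap4 in bone marrow (1.00 ± 0.27, limma adjusted p 0.0222), named after its value was seen. Npm1, Ldha, Hspd1, Set and several ribosome genes have processed copies elsewhere in the genome, and how reads shared with those were counted is not given in the sources used here.

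The difference between sources was called lower in 13 of the 39 and higher in 0, beside 3.62% of all genes called lower. That count was 7 to 16 over the alternatives, with 7 or 8 without WT bone marrow replicate 2, WT fetal liver replicate 2 or 3, ETV6-RUNX1 bone marrow replicate 1 or 3, or ETV6-RUNX1 fetal liver replicate 2. The fetal liver count was 30 to 34, and the bone marrow count 9 to 23, with 9 without ETV6-RUNX1 bone marrow replicate 2. In bone marrow the fall of these genes stood beside a Myc change of 0.04 (95% interval -0.30 to 0.37). Mycn was at -0.39 there without a call and Mxd1 rose by 0.82 (limma adjusted p 0.0859 and 0.0333). Many of these genes are also higher in cycling cells of any kind, and the cycling markers fell beside them, a part that was not tested.

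**Figure D4:**
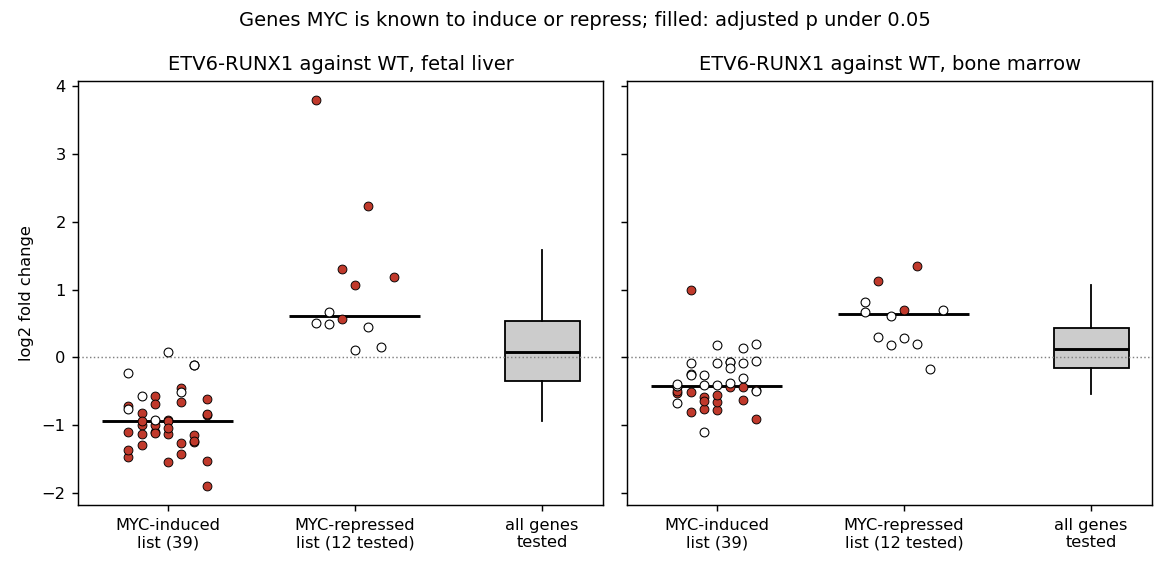
Log2 fold changes of ETV6-RUNX1 against WT for genes that MYC is known to induce (39) or repress (12 tested) in fetal liver and bone marrow, 1 point per gene, filled where the adjusted p is under 0.05, with the list median as a line. The grey box spans the middle 50% of all genes tested and its whiskers the 5th to 95th percentile. The induced genes centre at -0.94 in fetal liver and -0.42 in bone marrow, and the repressed genes at 0.62 and 0.64.

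Of 15 genes that MYC is known to repress, 12 were tested (Cdkn2b, Cebpa and Tmeff1 were too low). In fetal liver 6 rose and 0 fell (median 0.62, beside 24.8% of all genes called higher), and in bone marrow 3 rose and 0 fell (median 0.64, beside 14.4%). Cdkn1b (p27), a brake on CDK2, rose in fetal liver from 14.7 ± 3.40 to 38.3 ± 10.1 CPM (1.31 ± 0.31, limma adjusted p 0.00378) and was at 0.61 ± 0.31 in bone marrow without a call. Cdkn1a (p21), the classic gene repressed through MIZ1, was at 0.67 ± 0.35 without a call in fetal liver and rose in bone marrow from 53.4 ± 9.43 to 120.0 ± 41.4 CPM (1.12 ± 0.35, limma adjusted p 0.0392). Cdkn1c (p57), a gene of quiescent HSCs, passed in neither (0.12 and 0.29). Cdkn2c (p18) rose in bone marrow (1.34 ± 0.25, limma adjusted p 0.0029) and was at most 1.27 CPM in any fetal liver library.

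Ndrg1 rose in both sources (1.07 ± 0.22 and 0.69 ± 0.22, limma adjusted p 0.00145 and 0.0401). Its relative Ndrg2 rose in fetal liver from 29.9 ± 0.654 to 144.6 ± 13.9 CPM (2.23 ± 0.14, limma adjusted p 3.52e-08) and was at 0.20 ± 0.14 in bone marrow, with a called difference (2.03, limma adjusted p 4.2e-05). Cdh2, the N-cadherin gene, went from 0.732 ± 0.166 to 26.5 ± 18.7 CPM in fetal liver (3.79 ± 0.33, limma adjusted p 7.43e-07), with the ETV6-RUNX1 libraries spread from 13.3 to 48.0 CPM. Cdh2 passed the filter only through this group and so had to differ there. Without it 5 of 11 genes rose in fetal liver (median 0.57), and 3 of 11 in bone marrow (median 0.61). The bone marrow count of 3 dropped to 1 with median-of-ratios scaling, edgeR or all genes with reads, and without WT bone marrow replicate 1 or 3 or ETV6-RUNX1 bone marrow replicate 2. The fetal liver count was 5 to 7.

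Of 4 genes known to be driven by MLX with MondoA, 3 were tested. Txnip, an arrestin that limits glucose uptake, rose in fetal liver from 102 ± 16.9 to 289 ± 52.5 CPM (1.49 ± 0.17, limma adjusted p 1.45e-05), and was at 0.51 ± 0.17 in bone marrow (limma adjusted p 0.0560). Its difference between sources was called (0.99, limma adjusted p 0.0240), though not without WT bone marrow replicate 2, WT fetal liver replicate 2 or 3, ETV6-RUNX1 bone marrow replicate 1 or ETV6-RUNX1 fetal liver replicate 2. Its relative Arrdc4 was at 0.31 ± 0.26 in fetal liver and rose in bone marrow (0.87 ± 0.26, limma adjusted p 0.0294), a call lost with median-of-ratios scaling and without WT bone marrow replicate 1 or ETV6-RUNX1 bone marrow replicate 2. Hk2, the hexokinase that stands on this list and on the MYC-induced list, was level in both (-0.11 and -0.09). Pdk4 was too low to test.

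The genes whose profile over the 12 libraries was most like that of Myc were found by the root mean square difference of log2(CPM + 1) after centring each gene on its mean. They were Cplx2 (0.19), Spn (0.21), Syde2 (0.22), Chaf1b (0.22) and Ezr (0.23), beside a full range of 2.01 for Myc itself. Chaf1b, a subunit of the chromatin assembly factor that loads histones on new DNA, was at 205 ± 10.8 CPM in WT and 170.1 ± 14.0 CPM in fusion-carrying bone marrow, and at 126 ± 3.70 and 67.1 ± 2.34 CPM in WT and ETV6-RUNX1 fetal liver (SD, n = 3). Spn, which encodes the leukocyte surface protein CD43, was at 172 ± 18.9, 210.1 ± 14.8, 93.3 ± 15.1 and 57.1 ± 4.63 CPM in the same order of groups. Ezr, the ezrin linker of membrane and actin, was at 80.3 ± 12.0, 88.3 ± 14.0, 67.3 ± 3.80 and 37.3 ± 3.51 CPM. Cplx2 and Syde2 were low (at most 5.70 CPM as a group mean), where the added 1 in the log2 scale compresses differences. The measure describes likeness over these libraries, which share their group structure.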

How the data were processed

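RNA was sequenced as read pairs from total RNA of 12 libraries, after a stranded low-input library kit, per the labels' protocols. The authors deposited 1 table of CPM values per gene, with a column per library. The submitters' processing notes name GRCm38, STAR 2.5.1a, featureCounts 1.4.6-p5, Salmon 0.8.2, edgeR and limma, without roles. The table had 40757 entries; for 276 the gene ID was a repeat, and each gene was used 1 time. Values were whole multiples of a step per library, so 100% could be turned back into whole reads (tolerance 0.001). Totals were 32.3 to 64.5 M reads, and 3 reads, 0.047 to 0.093 CPM, were taken as the floor, which covers counting error only.

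The 14271 genes that reached 1 CPM in 3 or more libraries were tested as log2(CPM + 1) with limma 3.58.1 in R 4.3.3 (lmFit, eBayes with trend), two-sided, with 4 group coefficients, 8 residual degrees of freedom and Benjamini-Hochberg adjustment over all genes at 0.05, in 5 comparisons. The test was checked on simulated counts with the same relative spread for all genes and a small set of genes changed in ETV6-RUNX1 fetal liver only. That check covers neither outlying libraries nor the dependence on scaling given in the report. Alternatives were median-of-ratios scaling, quantile normalization, a pseudocount of 0.1, all genes with reads, a mean of at least 5 CPM, edgeR 4.0.16 (quasi-likelihood, TMM) and DESeq2 1.42.0 on the recovered reads, the replicate number as a block, only the 6 libraries compared (not for the difference between effects), and leaving out each library. Positions and exon lengths are from GENCODE M21 (GRCm38) and promoter sequences from RefSeq (GRCm38.p6). Exon length is that of the merged exons of all annotated transcripts of a gene, which can exceed that of a single transcript.

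All members and family genes are named. Of each further list, a fixed set of well-known genes was named whatever their values, with up to 2 called genes per list and genotype comparison by smallest p. The members, lists, rules and settings were chosen with earlier results of these data known. Marker lists for mast cells and basophils were checked beside those in the report (at most 45.6 CPM summed). So were those for fetal liver non-blood cells (26.5 to 66.9 CPM, Alb at most 0.36 CPM). Of the 6 of these tested in fetal liver, 2 were higher and 2 lower with the fusion, beside 24.8% and 18.3% of all genes. Lyve1 was at 3.38 to 17.6 against 0.42 to 0.65 CPM and Cdh5 at 15.4 to 15.6 against 5.26 to 7.91 CPM. Dlk1 went the other way, at 3.09 to 7.08 against 20.8 to 37.3 CPM. Lyve1 passed the filter only through ETV6-RUNX1 fetal liver and so had to differ there.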

Additional observations from a re-analysis of the deposited data

Results flagged for a closer look

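In 3 members the effect of ETV6-RUNX1 differed between fetal liver and bone marrow by a test of the difference itself, the interaction term of the limma model (Benjamini-Hochberg adjustment over 14271 genes, 3 libraries per group). Of 9 members tested 1 was called higher and 2 lower, beside 5.56% and 3.62% of all genes. For Myc the fetal liver effect minus the bone marrow effect was -0.999 on the log2 scale (adjusted p 0.0131), with a fall in fetal liver and a change of 0.04 in bone marrow. For Mycn it was -0.80 (adjusted p 0.0342), from effects of -1.20 and -0.39, a call that held under 12 of 20 alternatives. For Mxd1 it was 1.65 (adjusted p 0.00974), from effects of 2.47 and 0.82. The cycling, megakaryocyte, erythroid, granulocyte and monocyte, and HSC markers that moved between the same groups are given in the report. Their part was not tested.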

How the results depend on the processing

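The 12 called results of members had 249 alternative values, of which 225 kept direction and call, 24 kept the direction without the call and 0 turned around. Of the 33 results without a call, 14 of 687 alternative values became calls, and 30 changed sign, none larger than 0.20 in size. The number of members called in bone marrow, 1 (Mxd1), was 0 with all genes with reads, 0 with only the 6 libraries compared, 2 by edgeR and 2 by DESeq2 (Mxd1 and Mycn), and 0 to 1 leaving out 1 library. The gene behind that count was not always Mxd1. Without WT bone marrow replicate 1 it was Mycn (limma adjusted p 0.0387). Without ETV6-RUNX1 bone marrow replicate 1 it was Mxd3 (limma adjusted p 0.0306). The number called between WT sources, 1 (Myc), was 0 with all genes with reads (adjusted p 0.0713), 0 by edgeR (adjusted p 0.0511) and 0 to 1 leaving out 1 library. Without 1 library the number was 3 to 4 in fetal liver, 2 to 4 for the difference between effects and 4 between ETV6-RUNX1 sources. With the replicate number as a block the bone marrow count was 0 (Mxd1 at 0.82, limma adjusted p 0.0520). Same-numbered libraries deviated together in only 7 of 18 pairs (r over 0.1, range -0.44 to 0.39), so the numbers were not taken to pair libraries. The cause of these changes was not tested. Groups left with 2 libraries took their spread from the fit over all groups. Under median-of-ratios scaling, the share of higher calls among all calls moved from 74.5% to 50.6% in bone marrow, from 60.6% to 74.5% for the difference, from 30.3% to 40.99% between WT sources and from 36.3% to 58.7% between ETV6-RUNX1 sources, and under quantile normalization from 57.6% to 42.04% in fetal liver. Depth limited only Mycl, at 0 to 5 reads.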
